A study of Mus musculus with 7 samples.

Results

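Prostaglandins are local lipid signals made from arachidonic acid, and 10 mouse genes that make them, sense them or break them down are described here. The genes were taken by symbol from a table of 53715 genes, and all 10 were found: Ptgs1, Ptgs2, Ptgds, Ptges, Ptgis, Ptger2, Ptger4, Ptgfr, Hpgd and Ptgr1. They were named with their R406 and DMSO values already known, so the differences between those groups are given as descriptions, with no test. The study treated mouse embryonic fibroblasts with R406, an inhibitor of the kinase Syk, during the first stage of chemical reprogramming, and its title places Syk upstream of calcineurin and NFAT.

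The fibroblasts came from embryos at embryonic day 13.5 of the OG2 line, CBA-Tg(Pou5f1-EGFP)2Mnn/J, which carries a green fluorescent reporter of Pou5f1. RNA was sequenced from cells that received R406 (2 libraries) and from cells that received DMSO, its solvent (2 libraries). Both groups were kept in Stage 1 medium, under a protocol of 12 days. That medium held basic fibroblast growth factor, vitamin C, valproic acid, CHIR99021, 616452, Parnate, AM580, EPZ004777 and forskolin, an activator of adenylyl cyclase. CUT&Tag inserts sequencing adapters into DNA beside a bound antibody, and here the antibody was against FLAG, in cells that had been infected with rtTA and a TetO-Flag-Nfatc1 lentivirus. These cells received doxycycline with R406 or with DMSO for 4 days, and each condition had 1 library. A blank library without primary antibody was not analysed here. The Nfatc1 in those cells was therefore an introduced, induced protein, and the RNA libraries came from cells without that label. Neither the concentration of R406 nor the day of RNA harvest is given in the sources used here.

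The pathway starts when phospholipases free arachidonic acid from membranes and a cyclooxygenase turns it into prostaglandin H2. Terminal synthases then make prostaglandin E2, D2 or prostacyclin, each of which acts on its own G protein-coupled receptors, and a dehydrogenase and a reductase inactivate the products. In fibroblasts and macrophages the inducible cyclooxygenase and prostaglandin E synthase are well-known parts of inflammatory and growth responses, and NFAT and cAMP are among the known regulators of Ptgs2 transcription.

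Promoter sequences are shown for the 3 members whose promoter window was touched by an Nfatc1 peak in both CUT&Tag libraries, and for Ptgds, whose RNA differed most between the groups and whose window was touched by none. Each is the run of 250 bases before the annotated start, 5′ to 3′ on the strand of the gene, from RefSeq on GRCm38.p6, the build called mm10 in the labels. Capitals mark GGAAA, the core of the known NFAT site, or its reverse complement TTTCC. Ptgs2 lies at chr1:150099781-150100030 on the plus strand, Ptger4 at chr15:5244188-5244437, Ptgfr at chr3:151837529-151837778 and Ptgds at chr2:25469750-25469999, all 3 on the minus strand.
Ptgs2: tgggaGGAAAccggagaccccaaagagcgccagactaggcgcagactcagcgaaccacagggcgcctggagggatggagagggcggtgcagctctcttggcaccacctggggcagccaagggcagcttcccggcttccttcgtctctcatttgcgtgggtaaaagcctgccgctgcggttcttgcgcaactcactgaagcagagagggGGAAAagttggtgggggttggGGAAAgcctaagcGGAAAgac
Ptger4: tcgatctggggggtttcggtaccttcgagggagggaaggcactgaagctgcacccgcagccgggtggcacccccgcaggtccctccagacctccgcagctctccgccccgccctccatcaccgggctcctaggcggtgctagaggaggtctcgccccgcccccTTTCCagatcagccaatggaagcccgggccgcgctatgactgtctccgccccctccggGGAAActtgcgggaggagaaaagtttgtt
Ptgfr: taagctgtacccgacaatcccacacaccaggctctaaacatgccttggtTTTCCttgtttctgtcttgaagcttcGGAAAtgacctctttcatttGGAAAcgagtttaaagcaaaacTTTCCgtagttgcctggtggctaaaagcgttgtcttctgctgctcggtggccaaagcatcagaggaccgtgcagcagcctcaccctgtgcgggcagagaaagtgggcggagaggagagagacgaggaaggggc
Ptgds: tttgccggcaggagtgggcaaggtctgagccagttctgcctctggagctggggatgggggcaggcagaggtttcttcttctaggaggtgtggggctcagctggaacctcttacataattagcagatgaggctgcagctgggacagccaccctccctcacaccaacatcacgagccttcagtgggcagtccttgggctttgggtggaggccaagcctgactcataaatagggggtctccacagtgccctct
The Ptgs2 run holds 4 cores, whose first bases lie at −245, −42, −21 and −8 from the start. The Ptgfr run also holds 4, at −201, −175, −155 and −133. The Ptger4 run holds 2, at −87 and −29, and the Ptgds run holds 0, with 1 core in the bases just after the start.

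GGAAA was searched on both strands in windows of 250 bases before to 50 bases after each start. At least 1 copy was present in 61.3% of the 32851 promoter windows in the table, and at least 4 copies in 2.65%. Of the 9 members with an entry, Ptgs2 and Ptgfr held 4 copies, Hpgd held 3, Ptger4 held 2, Ptgds, Ptger2 and Ptgr1 held 1, and Ptgs1 and Ptges held 0. The half-site TGACG of the cAMP response element, also searched on both strands, was found in the Ptgs2 window and in none of the other 8, against 20.8% of all windows. In Ptgs2 it lies just after the annotated start, at chr1:150100036-150100057, where capitals mark its reverse complement.
Ptgs2 half-site: caccactaCGTCAcgtggagtc
The AP-1 motif TGANTCA, whose reverse complement reads the same, was found in the Ptgds window alone among the members, at −35 from the start, against 7.81% of all windows. A match is a run of letters and says nothing about binding.

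Expression was measured in TPM, a unit that corrects for transcript length, sums to the same total in each library and keeps no read depth. Each library had 13537 to 14045 genes at or above 1 TPM. The limma test on log2(TPM + 1) covered the 13929 genes whose mean reached 1 TPM. Of these 593 (4.26%) rose and 564 (4.05%) fell in R406, 8.31% in all, with a threshold of 0.05 on the Benjamini-Hochberg adjusted p. Among the 10 prostaglandin genes 7 reached that mean, and Ptgis, Ptger2 and Hpgd did not. Of the 7, limma called 1 higher and 0 lower, with 2 higher and 3 lower at an unadjusted p under 0.05, which 26.8% of all tested genes reached. The call was Ptgds. Nothing is read from it or from these counts, which are descriptions, since the members were chosen with their values known. No label says that replicates were separate cultures, so every p-value rests on a spread between libraries that may be technical.

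The 2 R406 libraries lay apart from the 2 DMSO libraries in each of the 10 genes. Among the 7 tested members 3 lay above and 4 lay below, while 56.1% of all tested genes had groups without overlap, 25.9% above and 30.2% below. The values are shown here for every library in the order replicate 1, replicate 2. In bulk RNA, fewer cells of one type and less RNA in each cell cannot be told apart.

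**Figure D1:**
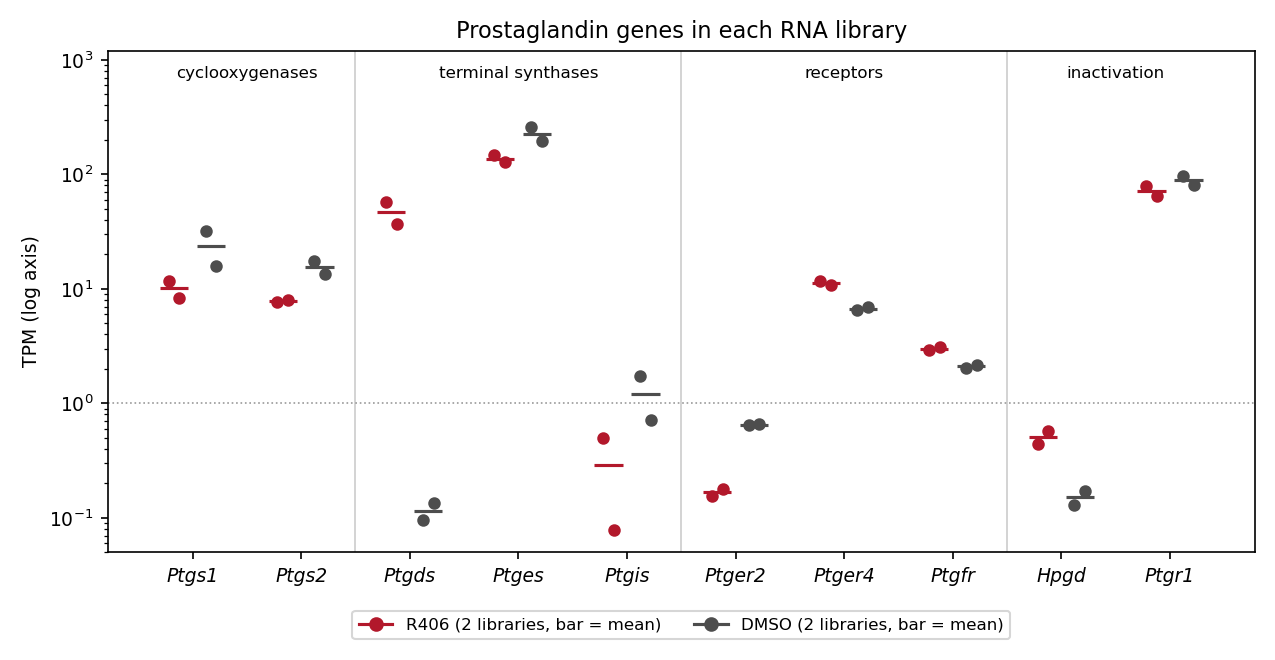
TPM on a log axis for the 10 prostaglandin genes, with 1 point per library and a bar at the mean of the 2 libraries, R406 left of DMSO. The R406 points of Ptgds sit at 57.4 and 36.9 TPM, against 0.0962 and 0.135 TPM in DMSO, while the means of the other 9 genes differ between the groups by 4.19-fold at most.

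Both cyclooxygenase genes were lower in R406. Ptgs1 encodes COX-1, the form that many tissues make constantly. It stood at 11.8 and 8.38 TPM in R406, against 31.7 and 15.7 TPM in DMSO, a log2 difference of −1.09 ± 0.38 (SE, n = 2 libraries per group here and below). Without DMSO replicate 1 the difference was −0.61. The DMSO libraries of Ptgs1 differed more from each other than the lower of them did from the higher R406 library. Ptgs2 encodes COX-2, the inducible form and a known target of NFAT in several cell types. It measured 7.63 and 8.0 TPM in R406, against 17.5 and 13.6 TPM in DMSO, a log2 difference of −0.90 ± 0.21. Here both R406 libraries were close together and below the lower DMSO library. Ptgs1 and Ptgs2 summed to 19.4 and 16.4 TPM in R406, against 49.2 and 29.3 TPM in DMSO. Ptgs1 gave 60.7% and 51.2% of that sum in R406, against 64.4% and 53.6% in DMSO, so the balance between the 2 forms overlapped between the groups while their total did not.

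Of the terminal synthases Ptgds had higher values in R406, while Ptges and Ptgis had lower ones. Ptgds encodes the lipocalin-type prostaglandin D synthase, which is abundant in meninges and in some epithelia and also carries small hydrophobic molecules. It stood at 57.4 and 36.9 TPM in R406, against 0.0962 and 0.135 TPM in DMSO, a ratio of means of 408 and a log2 difference of 5.40 ± 0.27. Both R406 libraries stood far above both DMSO libraries. The log2 difference understates the ratio, because 1 TPM was added to each value, and with 0.1 TPM added it was 7.75. It was 6.12 when TPM was rescaled without mitochondrial, ribosomal protein and Gm genes. Among the 13929 tested genes only 1, the predicted gene Gm47308, had a larger rise than Ptgds. In R406 the level of Ptgds exceeded that of 83.2% and 79.6% of tested genes, while in DMSO it exceeded 0.280% and 0.316% of them.

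Ptges encodes microsomal prostaglandin E synthase 1, the inducible enzyme that works with COX-2. It was the most abundant of the 10 genes in all 4 libraries, at 147 and 127 TPM in R406, against 259 and 195 TPM in DMSO. Its log2 difference was −0.71 ± 0.23, and its level exceeded that of at least 93.0% of tested genes in every library. Ptgis encodes prostacyclin synthase of vessel walls and smooth muscle. It was low throughout, at 0.501 and 0.0790 TPM in R406, against 1.72 and 0.712 TPM in DMSO, and its mean over the 4 libraries was too low for the test. Its log2 difference was −0.76, and −0.43 without DMSO replicate 1.

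Taken as shares of the 3 synthases, the R406 libraries were mixed and the DMSO libraries nearly pure. Ptgds made up 28.0% and 22.5% of the summed TPM of Ptges, Ptgds and Ptgis in R406, against 0.0368% and 0.0689% in DMSO. The sum itself was 205 and 164 TPM in R406, against 261 and 196 TPM in DMSO, ranges that overlap. Ptges RNA was still 2.57 and 3.45 times as abundant as Ptgds RNA in R406, against 2700 and 1450 times in DMSO.

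**Figure D2:**
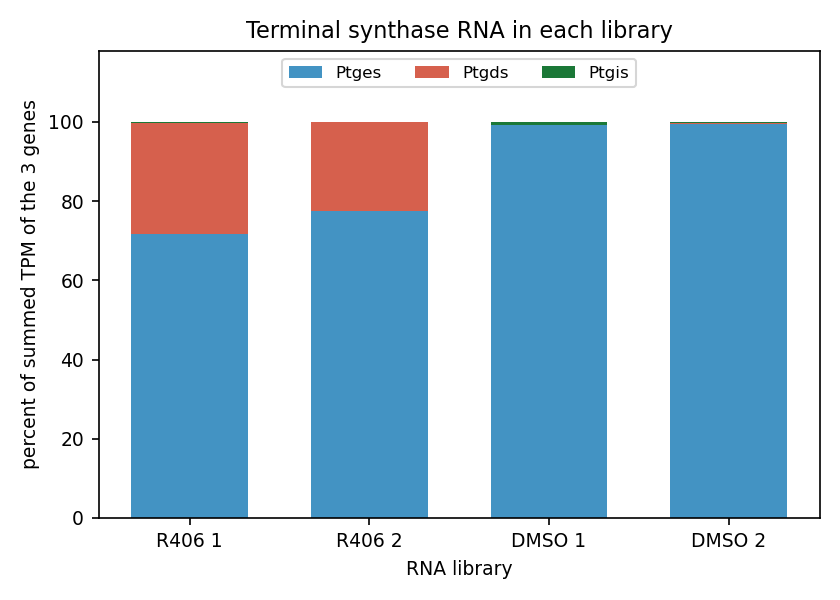
Percent of the summed TPM of Ptges, Ptgds and Ptgis taken by each gene, in 1 stacked bar per RNA library. Ptgds takes 28.0% and 22.5% of the R406 bars and is too small to see in the DMSO bars, where Ptges takes 99.3% and 99.6%.

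Among the receptor genes Ptger4 and Ptgfr had higher values in R406 and Ptger2 had lower ones. Ptger2 and Ptger4 encode EP2 and EP4, the receptors that raise cAMP. Ptger4 measured 11.6 and 10.9 TPM in R406, against 6.49 and 6.89 TPM in DMSO, a log2 difference of 0.67 ± 0.18, and its libraries were close together within each group. Ptger2 was low, at 0.154 and 0.179 TPM in R406, against 0.644 and 0.658 TPM in DMSO, and was not tested. Ptger4 RNA was 75.3 and 61.2 times as abundant as Ptger2 RNA in R406, against 10.1 and 10.5 times in DMSO. Ptgfr encodes the receptor of prostaglandin F2α, which signals through calcium. It measured 2.91 and 3.11 TPM in R406, against 2.05 and 2.15 TPM in DMSO, a log2 difference of 0.37 ± 0.18. Ptger4 gave 79.1% and 76.9% of the summed TPM of the 3 receptors in R406, against 70.7% and 71.0% in DMSO.

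Of the inactivating enzymes, the one for the first step was scarce and the one for the second abundant. Hpgd encodes 15-hydroxyprostaglandin dehydrogenase, which takes the first step. It stood at 0.438 and 0.572 TPM in R406, against 0.129 and 0.173 TPM in DMSO, and was not tested. Ptgr1 encodes prostaglandin reductase 1, which reduces the resulting ketones and leukotriene B4 products. It measured 78.9 and 64.4 TPM in R406, against 96.6 and 81.0 TPM in DMSO, a log2 difference of −0.31 ± 0.21. Without DMSO replicate 1 it was −0.18, and without R406 replicate 2 it was −0.16. The higher R406 library of Ptgr1 was only just below the lower DMSO library. Hpgd RNA amounted to 0.555% and 0.887% of Ptgr1 RNA in R406, against 0.133% and 0.214% in DMSO.

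The order of levels among the 10 genes differed between the groups, for Ptgds, Ptger4 and Hpgd among others. In R406 the order by mean was Ptges, Ptgr1, Ptgds, Ptger4, Ptgs1, Ptgs2 and Ptgfr, with Hpgd, Ptgis and Ptger2 below 1 TPM. The R406 libraries of Ptger4 and Ptgs1 and of Hpgd and Ptgis interleaved, so these neighbours were not separated. Those of Ptgs1 and Ptgs2 lay close at their nearest, 8.38 against 8.0 TPM, and those of Ptgis lay on either side of Ptger2. In DMSO the order by mean was Ptges, Ptgr1, Ptgs1, Ptgs2, Ptger4, Ptgfr, Ptgis, Ptger2, Hpgd and Ptgds. The DMSO libraries of Ptgs1 and Ptgs2 interleaved, while those of Ptgis and Ptger2 lay close at their nearest, 0.712 against 0.658 TPM, and those of Hpgd and Ptgds overlapped.

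Genes with the pattern most like that of a member were found by the Euclidean distance of log2(TPM + 1), centred on each gene's mean over the 4 RNA libraries. Nearest to Ptgds were Gm47308 at a distance of 0.693, the immunoglobulin superfamily gene Igsf1 at 1.06 and the acute-phase gene Saa3 at 1.22. Gm47308 stood at 90.2 and 71.1 TPM in R406, against 0.243 and 0.194 TPM in DMSO. Nearest to Ptgs2 were Stambpl1, Slc25a40 and Sbsn, at distances of 0.0843 to 0.0969 and log2 differences of −0.99 to −0.90. With 4 libraries such nearness is a description of 4 values only.

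Beyond the 10 genes, 19 further prostanoid genes were listed for synthesis, reception, transport and breakdown. Of these 18 were matched in the table and 12 were tested. With adjustment over all genes tested limma called 0 higher and 1 lower, where 8.31% of all tested genes were called. At an unadjusted p under 0.05 by limma 1 was higher and 6 were lower, against 26.8% of all tested genes. The median log2 difference of the 12 was −0.37, against −0.02 over all 13929 genes. This list and those that follow were chosen with earlier results of these data known, so their counts and medians are descriptions. In 8 of the 12 both R406 libraries lay below both DMSO libraries, against 30.2% of all tested genes. In 1 they lay above, against 25.9%. The 8 include genes with little difference, Ptgir at a log2 of −0.04 and Ptgfrn at −0.22.

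The gene that fell was Akr1c18, a mouse aldo-keto reductase that inactivates progesterone and can also form prostaglandin F2α. It measured 13.6 and 11.5 TPM in R406, against 56.3 and 57.5 TPM in DMSO, a log2 difference of −2.09 ± 0.19 (limma adjusted p = 0.0148, and 0.0593 with no filter on low values). Akr1b3, an aldose reductase that also makes prostaglandin F2α, was the most abundant gene of the list, at 374 and 253 TPM in R406, against 861 and 466 TPM in DMSO. Its log2 difference was −1.04 ± 0.38, which did not pass (limma adjusted p = 0.164), and without DMSO replicate 1 it was −0.60. Prxl2b, listed under its older symbol Fam213b and encoding another prostaglandin F synthase, averaged 20.0 ± 2.26 TPM in R406 and 29.1 ± 0.132 TPM in DMSO (SD, limma adjusted p = 0.158). The prostaglandin E synthases Ptges2 and Ptges3 had differences of 0.18 and 0.20, with 95% intervals of −0.66 to 1.03 and −0.34 to 0.73. Tbxas1, thromboxane synthase, was listed at 0 in each R406 library, against 0.841 and 1.01 TPM in DMSO, and it was too low to be tested. Hpgds, the haematopoietic prostaglandin D synthase, measured 0.0279 and 0.0544 TPM in R406, against 0.212 and 0.231 TPM in DMSO, so the gene for the other route to prostaglandin D2 was low in all 4 libraries.

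None of the 6 tested genes for receptors, transport and breakdown passed. At an unadjusted p under 0.05 by limma 1 was higher (Slco2a1) and 3 were lower, against 26.8% of all tested genes. Ptger3, the EP3 receptor that lowers cAMP, averaged 0.929 ± 0.0329 TPM in R406 and 1.94 ± 0.205 TPM in DMSO (SD, limma adjusted p = 0.118). The prostacyclin receptor gene Ptgir had a difference of −0.04 with a 95% interval of −0.51 to 0.42. Ptgfrn, a negative regulator of the F2α receptor, had −0.22 with an interval of −0.73 to 0.28. Abcc4, an exporter of prostaglandins and cyclic nucleotides, measured 3.77 and 3.70 TPM in R406, against 10.1 and 7.56 TPM in DMSO (log2 −1.04 ± 0.22, limma adjusted p = 0.0540). It passed after quantile normalization (limma adjusted p = 0.0332), median centring (0.0395) or rescaling of TPM (0.0254). These settings also called more of all genes. It did not pass with 0.1 TPM added (limma adjusted p = 0.0520) or a mean of at least 5 TPM (0.0683). Its log2 difference was −0.85 without DMSO replicate 1 and −1.23 without DMSO replicate 2. Slco2a1, the carrier that takes prostaglandins up for breakdown, measured 19.0 and 12.6 TPM in R406, against 9.20 and 7.91 TPM in DMSO (limma adjusted p = 0.135, and 0.0443 with rescaled TPM). Its log2 difference was 0.79, and 0.51 without R406 replicate 1. Ptgr2, a second reductase, averaged 13.4 ± 2.85 TPM in R406 and 24.0 ± 2.25 TPM in DMSO (SD, limma adjusted p = 0.0980). The genes of prostaglandin D2 and thromboxane receptors, Ptgdr, Ptgdr2 and Tbxa2r, were at most 0.226 TPM in any library, and the EP1 gene Ptger1 at most 0.647 TPM. Tbxas1, Hpgds and these 4 receptor genes were picked for mention after their values were seen.

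**Figure D3:**
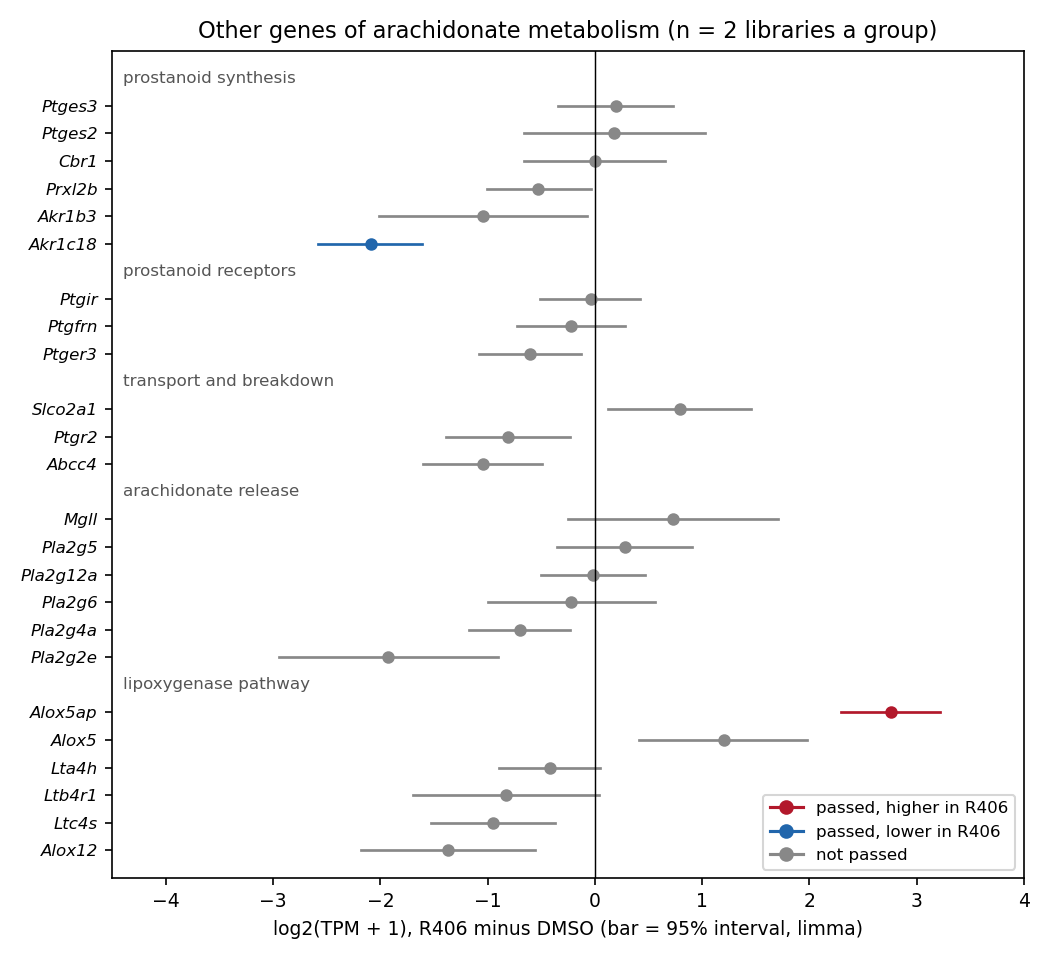
Difference of log2(TPM + 1), R406 minus DMSO, for the 24 tested genes of arachidonate metabolism outside the 10, grouped by role, with 95% intervals from limma (2 libraries per group). Alox5ap lies at 2.76 and Akr1c18 at −2.09, and these were the only ones of the 24 that passed.

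The supply of arachidonic acid and its other use by lipoxygenases were covered by 21 further genes, of which 12 were tested. Limma called 1 higher and 0 lower, where 8.31% of all tested genes were called. At an unadjusted p under 0.05 by limma 2 were higher and 4 lower, against 26.8% of all tested genes. The median difference was −0.32. The gene that rose was Alox5ap, which encodes the membrane protein that presents arachidonic acid to 5-lipoxygenase. It measured 60.7 and 56.7 TPM in R406, against 8.06 and 7.58 TPM in DMSO, a log2 difference of 2.76 ± 0.18 (limma adjusted p = 0.0110, and 0.0593 with no filter on low values). Alox5, the 5-lipoxygenase itself, measured 12.6 and 9.01 TPM in R406, against 5.35 and 3.10 TPM in DMSO (log2 1.2 ± 0.30, limma adjusted p = 0.0821). Its difference was 1.51 without DMSO replicate 1 and 0.88 without DMSO replicate 2. It passed after quantile normalization (limma adjusted p = 0.0402), median centring (0.0345) or rescaling of TPM (0.0235). These settings also called more of all genes. With 0.1 TPM added it did not pass (limma adjusted p = 0.0852). Further down that route, the leukotriene C4 synthase gene Ltc4s and the leukotriene B4 receptor gene Ltb4r1 had differences of −0.95 and −0.83, and the 12-lipoxygenase gene Alox12 had −1.37, with limma adjusted p of 0.0666 to 0.201. The difference of Alox12 was −1.02 without DMSO replicate 1 and −1.73 without DMSO replicate 2. That of Ltc4s was −0.75 and −1.15 in the same order. After quantile normalization, median centring or rescaling of TPM both Alox12 (limma adjusted p of 0.0211 to 0.0359) and Ltc4s (0.0306 to 0.0449) passed. With 0.1 TPM added neither Alox12 nor Ltc4s passed (limma adjusted p = 0.0682 and 0.0686). Without DMSO replicate 1 or R406 replicate 2 the difference of Ltb4r1 was −0.52 or −0.51. Pla2g4a, the cytosolic phospholipase A2 that supplies most cyclooxygenase substrate, averaged 12.5 ± 0.338 TPM in R406 and 20.9 ± 1.5 TPM in DMSO (SD, log2 −0.70, limma adjusted p = 0.0852). The secreted phospholipase gene Pla2g2e measured 0.842 and 0.224 TPM in R406, against 6.93 and 3.12 TPM in DMSO (log2 −1.93, limma adjusted p = 0.0537). Its difference was −1.46 without DMSO replicate 1 and −2.40 without DMSO replicate 2. It passed after quantile normalization (limma adjusted p = 0.0265), median centring (0.0259) or rescaling of TPM (0.0158). With 0.1 TPM added it did not pass (limma adjusted p = 0.0610). Mgll, which frees arachidonic acid from a monoacylglycerol, had a difference of 0.73 with a 95% interval of −0.25 to 1.71, and Pla2g5 had 0.28 with an interval of −0.35 to 0.91.

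Markers of other cell types moved in the same libraries, and their part in the values above was not tested. Over all tested genes 4.26% rose and 4.05% fell. Of 13 macrophage markers 9 were tested and 8 fell, with a summed level of 21.7 and 23.6 TPM in R406, against 285 and 240 TPM in DMSO. Most of the DMSO sums was Lyz2 alone, at 207 and 179 TPM, against 3.86 and 3.33 TPM in R406. Itgam and Ptprc were listed at 0 in both R406 libraries and were low in DMSO too, at 0.256 and 0.156 TPM for Itgam and 0.0829 and 0.142 TPM for Ptprc. Macrophages are a known source of Ptgs1, Ptgs2, Ptges, Tbxas1, Alox5 and Alox5ap. Cd14, the tested macrophage marker that was not called, made up most of the R406 sums. It measured 14.2 and 15.4 TPM in R406, against 14.8 and 9.04 TPM in DMSO. Epithelial markers summed to 799 and 456 TPM in R406, against 153 and 147 TPM in DMSO, with 6 of 7 risen. Extraembryonic endoderm markers summed to 343 and 184 TPM in R406, against 49.2 and 58.0 TPM in DMSO, with 4 of 7 tested risen. These were Gata4, Sox17, Sox7 and Foxa2. Amn, Gata6 and Dab2 were not called, with log2 differences of 2.36, 0.43 and −0.25, and Gata6 and Dab2 overlapped between the groups. Afp, too low for the test, measured 0.291 and 0.222 TPM in R406, against 0.488 and 0.610 TPM in DMSO. Markers of the meninges, a tissue known for Ptgds, summed to 53.1 and 42.8 TPM in R406, against 54.2 and 43.9 TPM in DMSO. Limma called 0 of 5 tested, with 0 at an unadjusted p under 0.05. Most of these sums was Bgn and Aldh1a2, at 21.5 and 19.7 TPM in R406 replicate 1 and 26.2 and 18.6 TPM in DMSO replicate 1. Slc6a13 and Slc22a6 were at most 0.47 TPM in any library, so the sums say little about them. Smooth muscle markers summed to 469 and 344 TPM in R406, against 1240 and 901 TPM in DMSO, with 1 of 4, Acta2, fallen. Acta2 and Tagln gave most of these sums. Of the 4 differences 3 were negative and 1, that of Myh11, was positive. Myh11 measured 9.76 and 8.37 TPM in R406, against 4.85 and 6.29 TPM in DMSO. Mast cell markers, of another cell that makes prostaglandin D2, summed to 15.8 and 12.9 TPM in R406, against 5.11 and 5.12 TPM in DMSO. Both tested ones, Kit and Cma1, rose, while Cpa3 and Mcpt4 were listed at 0 in both R406 libraries. Endothelial markers summed to 11.8 and 9.21 TPM in R406, against 10.8 and 10.7 TPM in DMSO, and limma called 0 of 3 tested, with 1 at an unadjusted p under 0.05. Markers of fibroblasts, the labelled source, were abundant, at 4400 and 3330 TPM summed in R406, against 2970 and 2670 TPM in DMSO, and 2 of 9, Col3a1 and Postn, rose. Of the 9 differences 5 were positive and 4 negative. Thy1 measured 837 and 749 TPM in R406, against 1140 and 1060 TPM in DMSO. Pdgfra measured 169 and 157 TPM in R406, against 195 and 194 TPM in DMSO. The summed share of ribosomal protein genes was 21.8% and 25.2% in R406, against 16.0% and 17.7% in DMSO. That of mitochondrial genes was 6.72% and 10.3% in R406, against 10.5% and 14.2% in DMSO.

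Peaks of introduced Nfatc1 were looked for in the span of each gene with 100 kb on each side of Ptgs2 and Ptgfr and 10 kb on each side of the other members. With 1 library per condition nothing here has a replicate, and the fold enrichment of each peak is the authors' own value within its list. The R406 list held 42 peaks in these windows and the DMSO list 27, a ratio of 1.56. Over the whole lists, of 36885 peaks in R406 and 21246 in DMSO, the ratio was 1.74. At the members 25 of the 42 R406 peaks (59.5%) overlapped a DMSO peak by at least 1 bp and 24 of the 27 DMSO peaks (88.9%) overlapped an R406 peak, against 41.4% and 73.0% over the whole lists. The share depends on the window: with 100 kb around every member 34 of 79 R406 peaks were shared. In the windows used here 9 members had a peak in R406 and 8 in DMSO, and Ptgr1 had none in either. Among all protein-coding genes 59.2% had an R406 peak and 43.8% a DMSO peak within the span or 10 kb of it. A peak touched the promoter window of 3 of the 9 members with an entry, Ptgs2, Ptger4 and Ptgfr, in both lists. Of all promoter windows 22.3% were touched in R406, 15.0% in DMSO and 13.2% in both.

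At Ptgs2 the strongest peak in either library lay on the start site. It ran over chr1:150099513-150100396 with a fold of 23.4 in R406 and over chr1:150099476-150100341 with a fold of 16.8 in DMSO, stronger than 89.9% and 84.8% of its own list. The summits lay at −163 bases in R406 and −23 bases in DMSO from the annotated start, so both peaks span the promoter printed above with its 4 GGAAA cores. The same peaks cover the start of Ptgs2os, a neighbouring gene. A second shared peak lay about 22.1 kb beyond the gene, with a fold of 14.5 in R406 and 9.47 in DMSO. Of the other Ptgs2 peaks 3 were in the R406 list alone, with folds of 4.43 to 8.86, and 1 was in the DMSO list alone, with a fold of 5.10.

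Ptgfr had 14 peaks in R406 and 9 in DMSO in its window of 100 kb, with 7 of each shared. Within 10 kb of the gene it had 4 in each library. Its promoter peak was moderate, with a fold of 10.1 at chr3:151836772-151837603 in R406 and 12.4 at chr3:151836788-151837610 in DMSO. The summits lay inside the gene, 487 bases past the start in R406 and 354 bases in DMSO. Neither peak reached any of the 4 GGAAA cores printed above for Ptgfr. The strongest lay upstream, 76.1 kb outside the gene span in R406 and 76.2 kb in DMSO, at chr3:151913623-151914980 with a fold of 86.0 in R406 and at chr3:151913695-151915160 with a fold of 111 in DMSO. It was stronger than 99.6% and 99.8% of its list. Another upstream peak, 53.8 kb outside the span in R406 and 54.0 kb in DMSO, had folds of 53.5 and 24.1, and it lies inside the predicted gene Gm31596. Which gene, if any, these distant peaks act on was not tested, and the RNA of Ptgfr stayed between 2.05 and 3.11 TPM. Peaks on the far side of Ptgfr, 3 in R406 and 0 in DMSO, lay in or near Ifi44l, an interferon-induced gene.

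**Figure D4:**
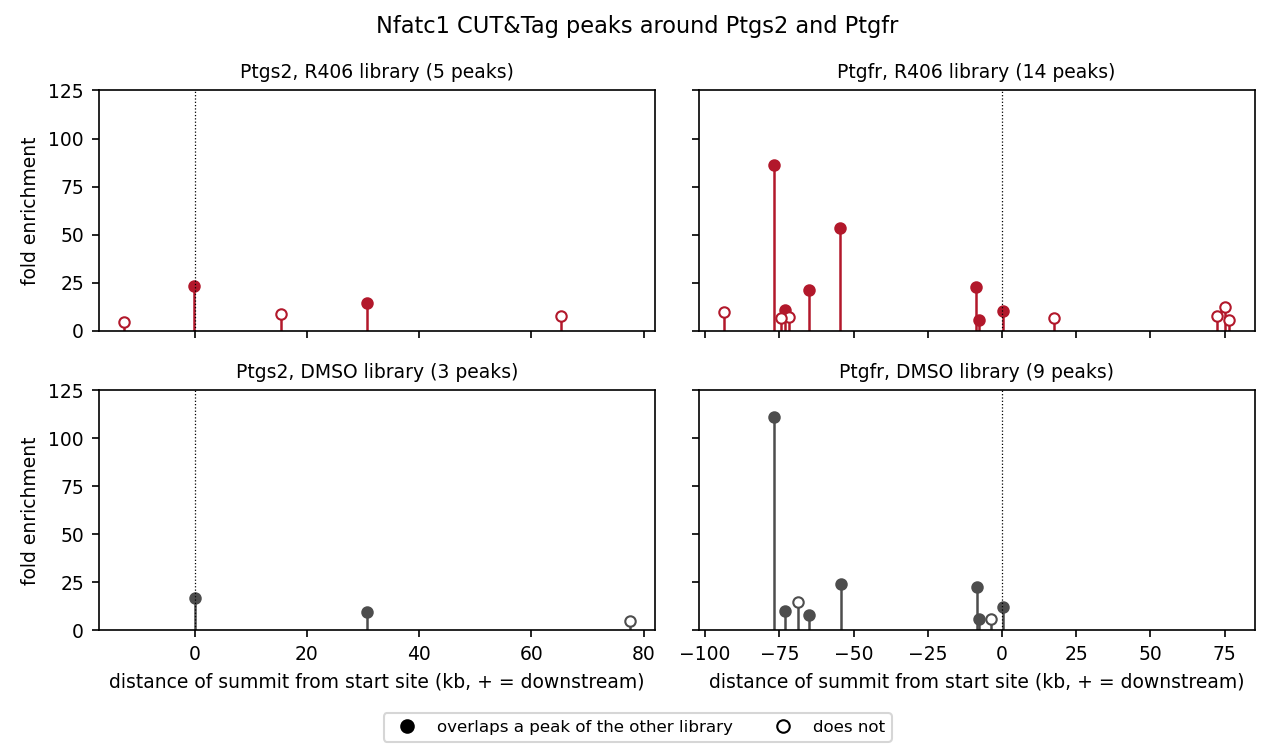
Fold enrichment of each Nfatc1 peak against the distance of its summit from the start site in kb, for Ptgs2 and Ptgfr, with R406 above DMSO and filled points for peaks that overlap a peak of the other library. The peak on the Ptgs2 start has a fold of 23.4 in R406 and 16.8 in DMSO, and the highest Ptgfr peak, far upstream of the start, has 86.0 in R406 and 111 in DMSO.

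Ptger4 had 3 peaks in each library, all shared, with folds of 6.33 to 11.4 in R406 and 5.83 to 7.29 in DMSO. The promoter peak ran over chr15:5243828-5244678 in R406, across the start site, and over chr15:5244255-5244524 in DMSO, where it lay 68 bases from the gene. In R406 it covered the printed GGAAA cores at −87 and −29, and in DMSO only the one at −87. Ptger2 had 1 peak in R406, 1.95 kb from the gene with a fold of 6.96, and 0 in DMSO. Ptges had 8 peaks in R406, 7 of them inside the gene span, and 4 in DMSO, all inside it. The RefSeq span of Ptges reaches upstream of the start used for its promoter window and overlaps Gm52550 and Gm13400. None of these peaks touched that window, and the strongest in DMSO, 3.64 kb into the gene with a fold of 21.1, had a fold of 8.86 in the R406 list. Ptgs1 had 4 peaks in R406 and 3 in DMSO, the strongest in DMSO, with a fold of 23.3, lying 0.423 kb beyond the gene. Hpgd had 5 in R406 and 3 in DMSO, and none at its start. Ptgis had 1 shared peak in its span, with a fold of 4.43 in R406 and 12.4 in DMSO.

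Ptgds, the gene whose RNA differed most, had 1 shared peak in its window and none in its span or promoter. That peak lay 5.70 kb from the gene inside Paxx, at chr2:25460270-25461011 with a fold of 10.8 in R406 and at chr2:25460762-25461015 with a fold of 5.10 in DMSO. The next R406 peak, 28.9 kb away, fell outside the window of 10 kb. Just outside the windows, the peak nearest to a member was one 15.7 kb from Hpgd in DMSO, with a fold of 13.1, followed by one 17.5 kb from Ptges in R406, with a fold of 58.8. The DMSO peak nearest to the Ptges window lay 18.0 kb from the gene, with a fold of 22.6. The peaks inside a window of 10 kb that lay nearest its edge were those of Hpgd, 8.91 kb away in R406 with a fold of 10.1 and 9.0 kb away in DMSO with a fold of 8.01.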

How the data were processed

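The authors deposited TPM per gene for 4 RNA libraries, as 1 table and as single files with equal values. HISAT2 2.1.0, StringTie 2.0 and the build mm10 are named for them, per the submitters' processing notes. Per the labels' protocols libraries were made with an NEBNext Ultra kit, and strand is not stated, so reads of overlapping genes cannot be told apart. The deposited peak lists give a fold enrichment ratio, −log10 p and q values and a score for each peak, and per the submitters' processing notes Bowtie2 2.2.5 and MACS2 2.1.2 were among the tools. For the role of each tool, the annotation, the control library and the calling limit, the sources used here give nothing. The lowest −log10 p was 5.00 in R406 and 5.03 in DMSO, and the score was 10 times that value, cut to a whole number.

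Of 53715 genes 53620 had a symbol in the gene table. The test was that of limma 3.58.1 (R 4.3.3), two-sided, applied to log2(TPM + 1) of genes whose mean reached 1 TPM, with the prior variance following the mean, no replicate term and Benjamini-Hochberg adjustment over all genes tested, at a threshold of 0.05. The fit was tested on simulated data. Depth cannot be recovered from TPM. Of each further list every gene that passed was named, with the 4 of smallest p among the rest. Members and lists were chosen with earlier results of these data known. Of the listed symbols Prxl2b was matched through a RefSeq synonym and Ptgr3 was not matched. Gene spans and promoters came from RefSeq on GRCm38.p6, where 9 of the 10 members had a promoter entry and Ptgis had none.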

Additional observations from a re-analysis of the deposited data

How the results depend on the processing

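The 10 members kept the sign of their difference in all 95 values under other settings, but many of these signs were fixed beforehand. The groups of each member did not overlap, so leaving out 1 library or adding 0.1 TPM could not reverse a sign. Changing the filter on low values or adding the replicate block left the difference itself unchanged. The count of members passing limma, a description since their values were known when they were chosen, was 1 higher and 0 lower. It became 0 higher with no filter on low values, where 0 genes of 27879 passed in either direction. It became 1 higher and 1 lower when TPM was rescaled after removal of mitochondrial, ribosomal protein and Gm genes. That rescaling called 1162 higher and 996 lower of 13468 genes. With the replicate number as a block the count of members became 2 higher and 4 lower. The block called 2128 higher and 2535 lower of all 13929 genes, against 593 and 564 without it. Under that block Akr1b3, Prxl2b, Abcc4, Ptgr2, Slco2a1, Pla2g2e, Pla2g4a, Alox5, Alox12, Ltc4s and Ltb4r1 also passed, with adjusted p of 0.00592 to 0.0298. The labels tie no replicate number to a culture. Deviations of same-numbered libraries correlated with r = 0.556 across genes, which with 2 pairs does not establish pairing.

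Over all genes, 311 were higher and 332 lower with a mean of at least 5 TPM, 877 higher and 850 lower after quantile normalization, 933 higher and 755 lower after centring on the median, 1162 and 996 with rescaled TPM, and 2128 and 2535 with the replicate block. Leaving out 1 library gave 159 to 914 higher and 158 to 574 lower, where omitting DMSO replicate 1 left 159 and 158, omitting DMSO replicate 2 left 383 and 335, and omitting R406 replicate 2 left 914 and 496. There the lone library was assumed to vary like the pair of the other group. For the further prostanoid genes, no filter gave 0 lower, quantile normalization and median centring 2 lower, rescaling 1 higher and 2 lower, and the block 1 higher and 5 lower, while leaving out 1 library gave 0 higher and 1 lower each time. For arachidonate release and lipoxygenases, no filter gave 0 higher, quantile normalization, median centring and rescaling 2 higher and 3 lower each, and the block 2 higher and 6 lower. Leaving out 1 library gave 1 to 2 higher and 0 to 2 lower. Ptges2 changed sign without DMSO replicate 2 (−0.03) or R406 replicate 1 (−0.19) and ranged from −0.19 to 0.56 when 1 library was left out, and Ptgir under median centring (0.00). With 100 kb around every member the peak counts were 79 in R406, 34 of them shared, and 44 in DMSO. The causes were not tested. With 2 libraries per group, small differences were not detectable.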
